A study of Mus musculus with 6 samples.

Results

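The expression of 9 genes by which cochlear macrophages are recognised was followed over 6 one-colour Agilent arrays of mouse cochlear RNA. The members were every non-control probe whose gene name in the scanner files was Csf1r, Csf1, Cx3cr1, Trem2, Tyrobp, Cd68, Cd163, Mrc1 or Aif1, which gave 9 genes and 16 probes of 37317 genes and 56605 probes. All mice were female C57BL/6 animals aged 6 weeks with no genetic change named in the labels. The groups were noise for 2 h followed at once by intraperitoneal dexamethasone at 10 mg/kg and collection at 12 h or at 24 h, noise followed by control saline and collection at 12 h or at 24 h, noise only, and a baseline with neither noise nor dexamethasone. Each group had 6 mice and 1 array, and the sources used here do not say whether the RNA of the mice was pooled before labelling. When the noise-only cochleae were collected is not stated either.

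Macrophages live in the healthy cochlea in the spiral ligament, the stria vascularis, along the spiral ganglion and near the basilar membrane, and monocytes enter the tissue from the blood after acoustic injury. Their survival depends on the receptor tyrosine kinase CSF1R, which is activated by the growth factor CSF1 and by a second ligand, IL34. TREM2 is a lipid-sensing receptor that signals through the adaptor TYROBP (also called DAP12), and CD163 and MRC1 are scavenger receptors of resident macrophages. Glucocorticoids such as dexamethasone are known to induce CD163 in cultured human monocytes.

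A level here is the log2 processed signal of the brightest probe of a gene minus the 75th percentile of that array, so a level of 0 is the brightness of the 75th percentile probe. Levels of different genes come from different probes and are not compared with each other. With 1 array per group no difference between 2 arrays had a replicate check, and the 95% interval given after a difference covers the scanner software's spot error and nothing else. For the members that error was nearly the same for every gene and array, being mostly a preset share of the signal. Each of their intervals thus reached about 0.40 on the log2 scale to either side. Passing spot error is therefore close to passing a fixed cut-off, and is not a measured precision. Between 63.0% and 70.3% of probes were well above background on an array, and the brightest probe of each of the 9 genes was so on 6 of 6 arrays. Both 12 h arrays lay on 1 slide with a scan of its own and the other 4 arrays on another, so a 12 h array differs from baseline in slide as well as in treatment, and these cannot be told apart. Hair cell markers, a check of the labelled tissue, were well above background for 6 or 7 of 8 genes on each array, with Slc26a5, the outer hair cell motor protein, so on 0 of 6 arrays, and stria vascularis markers were so for 7 of 7. In bulk tissue fewer macrophages and less RNA per macrophage cannot be told apart.

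Tyrobp had 1 probe, shown because its 60 bases span 1728 bases of chromosome 7 (mm9 chr7:31200651-31202378), so that it reads across at least one splice junction of the mRNA. The dimmer of the 2 Cd163 probes (mm9 chr6:124270436-124270495) is shown because it gives a second reading of that gene.
Tyrobp probe: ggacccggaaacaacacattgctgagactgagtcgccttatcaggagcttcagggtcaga
Cd163 dimmer probe: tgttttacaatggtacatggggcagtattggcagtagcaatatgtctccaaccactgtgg

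Promoters are shown for Cd163, whose level was higher with dexamethasone than with saline at both times, and for Trem2 and Aif1, whose levels were lower at both times. Cd68 and Tyrobp were also lower at both times and the brightest Csf1 probe higher at both, but their promoters are not shown. Each stretch holds the 250 bases before the gene start in RefSeq on GRCm38.p6. A stretch was searched for 7 of the 9 members, and Csf1r and Tyrobp were left out. A pair of words was searched on both strands, the glucocorticoid receptor half-site AGAACA and the PU.1 word GAGGAA, PU.1 being the master transcription factor of the macrophage lineage, and capitals mark the matches in the strand of the gene. The words do not overlap each other in these stretches.
Cd163 chr6:124304401-124304650: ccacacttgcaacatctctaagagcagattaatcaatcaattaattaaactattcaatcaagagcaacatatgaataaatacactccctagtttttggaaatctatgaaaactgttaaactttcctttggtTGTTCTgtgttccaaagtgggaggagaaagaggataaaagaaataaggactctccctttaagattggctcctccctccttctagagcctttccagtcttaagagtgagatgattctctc
Trem2 chr17:48346151-48346400: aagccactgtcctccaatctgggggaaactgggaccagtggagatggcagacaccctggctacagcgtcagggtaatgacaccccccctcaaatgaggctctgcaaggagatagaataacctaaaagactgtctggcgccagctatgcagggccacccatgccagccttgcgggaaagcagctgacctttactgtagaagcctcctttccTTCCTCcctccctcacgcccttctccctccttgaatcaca
Aif1 chr17:35176053-35176302: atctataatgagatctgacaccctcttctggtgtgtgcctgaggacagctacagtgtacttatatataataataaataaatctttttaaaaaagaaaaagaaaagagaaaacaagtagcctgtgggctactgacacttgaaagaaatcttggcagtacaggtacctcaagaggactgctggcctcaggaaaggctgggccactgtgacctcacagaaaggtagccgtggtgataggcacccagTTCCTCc
Cd163 and Trem2 lie on the plus strand and Aif1 on the minus strand. The half-site stood 119 bases before the start of Cd163, as its reverse complement, and was absent from the Trem2 and Aif1 stretches. The PU.1 word stood, also as its reverse complement, 40 bases before the start of Trem2 and 7 bases before that of Aif1, and was absent from the Cd163 stretch. Among 32851 promoter stretches of the same length, 16.1% held the half-site and 23.3% the PU.1 word, so both matches are common ones. Over the 7 members with a stretch, Csf1 also held the half-site, and Mrc1 and Cd68 also held the PU.1 word.

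**Figure D1:**
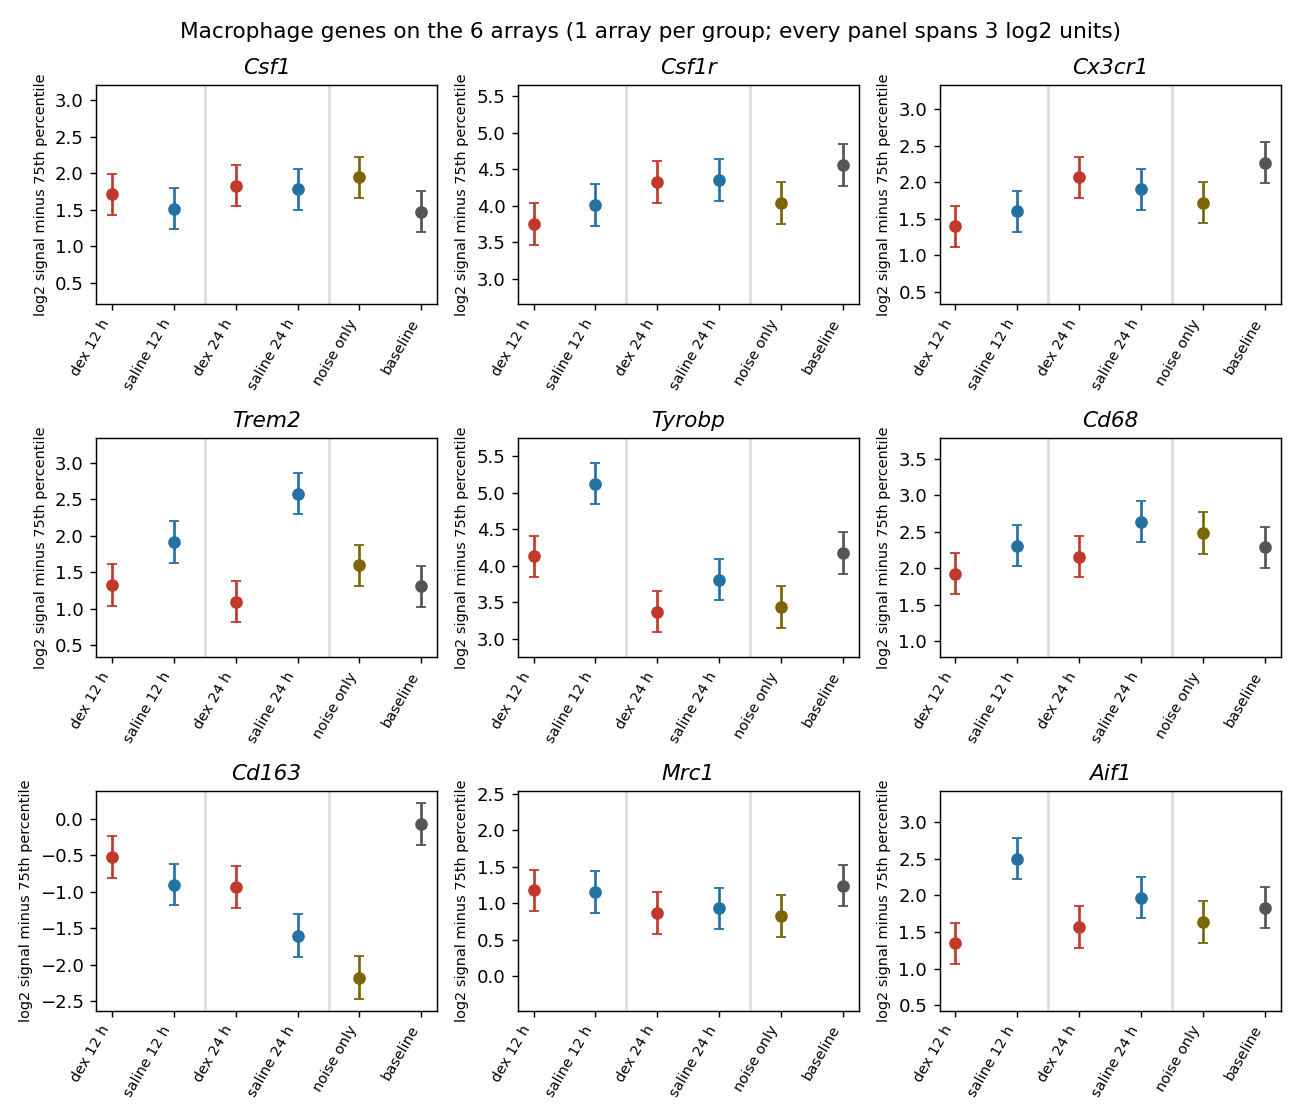
Level of each of the 9 macrophage genes on the 6 arrays, as log2 signal minus the 75th percentile of the array, with bars for the 95% interval from spot error; every panel spans 3 log2 units. Trem2 was highest at 24 h after saline (2.58), Tyrobp and Aif1 at 12 h after saline (5.12 and 2.50), and Cd163 was lowest in the noise-only array (-2.18).

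Cd163, the haemoglobin scavenger receptor, had the widest range of the 9 genes. Its level was -0.52 at 12 h and -0.93 at 24 h after dexamethasone, -0.90 and -1.60 at the same times after saline, -2.18 after noise only and -0.08 at baseline. The baseline array was thus the highest of the 6 and the noise-only array the lowest. After noise only the level was 4.29-fold lower than at baseline (interval 3.24 to 5.68), and 0.3% of the 24160 genes measured on both arrays had a lower difference. With a normexp background correction this log2 difference of -2.10 was -1.62, a change larger than spot error. At 24 h after saline the level was 2.88-fold lower than at baseline (2.17 to 3.83), and at 12 h after saline 1.77-fold lower (1.34 to 2.34). With dexamethasone it was also below baseline, by 1.36-fold (1.03 to 1.80) at 12 h and 1.81-fold (1.37 to 2.40) at 24 h.

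Against the saline array of the same time, Cd163 was higher after dexamethasone. The difference was 0.38 on the log2 scale at 12 h, within spot error, and 0.67 (0.26 to 1.08), or 1.59-fold, at 24 h, beyond it. The dimmer probe, well above background on the dexamethasone 12 h, saline 12 h and baseline arrays alone, gave 0.31 at 12 h. At 24 h neither array held it well above background, and its values differed by 0.70. Against baseline this probe gave -0.14 at 12 h after saline, where the brighter probe gave -0.83, so the size of that difference depended on the probe.

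Trem2, the lipid-sensing receptor, was high after saline and lower with dexamethasone. Its level was 1.32 at 12 h and 1.10 at 24 h after dexamethasone, against 1.91 and 2.58 after saline, with 1.60 after noise only and 1.31 at baseline. The 2 saline arrays were the highest of the 6, and both dexamethasone arrays differed from baseline by less than spot error. At 24 h the dexamethasone array was 2.79-fold lower than the saline array (2.11 to 3.68), and 0.37% of the 22709 genes measured on both had a lower difference. At 12 h it was 1.51-fold lower (1.14 to 1.99). Set against baseline, Trem2 was 2.40-fold higher (1.82 to 3.17) at 24 h after saline, where 1.72% of measured genes were at least 2-fold higher. At 12 h after saline it was 1.52-fold higher (1.15 to 2.01), a difference of 0.61 that became -0.21 when the arrays were scaled on spike-in probes.

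Tyrobp, the adaptor through which TREM2 and several other myeloid and natural killer cell receptors signal, had the highest level at 12 h after saline. The levels were 4.13 at 12 h and 3.37 at 24 h after dexamethasone, against 5.12 and 3.81 after saline, with 3.44 after noise only and 4.18 at baseline. At 12 h the dexamethasone array was 1.99-fold lower than the saline array (1.51 to 2.63) and at 24 h 1.35-fold lower (1.03 to 1.79). The dexamethasone 12 h level was close to baseline, with a difference of -0.05. Tyrobp was 1.67-fold lower than baseline after noise only (1.26 to 2.20) and 1.74-fold lower at 24 h after dexamethasone (1.32 to 2.30). It was 1.93-fold higher than baseline at 12 h after saline (1.46 to 2.55), and with spike-in scaling that log2 difference of 0.95 was 0.13.

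Aif1, which encodes the actin-binding macrophage marker IBA1, followed the same order of dexamethasone below saline. Its level was 1.35 at 12 h and 1.57 at 24 h after dexamethasone, against 2.50 and 1.97 after saline, with 1.64 after noise only and 1.83 at baseline. The saline 12 h array stood highest and the dexamethasone 12 h array lowest. The dexamethasone array was 2.23-fold lower than the saline array at 12 h (1.69 to 2.95), where 1.04% of measured genes had a lower difference, and 1.32-fold lower at 24 h, with a log2 interval of -0.80 to -0.0014 that only just left out 0. At 12 h after saline Aif1 was 1.59-fold above baseline (1.21 to 2.10), and with spike-in scaling the log2 difference of 0.67 turned to -0.15.

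Cd68, a glycoprotein of the macrophage lysosome, was lower with dexamethasone by smaller amounts. Its level was 1.92 at 12 h and 2.16 at 24 h after dexamethasone, against 2.31 and 2.64 after saline, with 2.48 after noise only and 2.29 at baseline. The log2 difference between dexamethasone and saline was -0.39 at 12 h, within spot error, and -0.48 (-0.88 to -0.08) at 24 h. The other 2 Cd68 probes had the same sign at both times, with differences of -0.55 and -0.54 for the one and -0.24 and -0.22 for the other, which matches a separate Ensembl transcript. No difference of the brightest Cd68 probe from baseline passed spot error. The Ensembl transcript probe gave -0.73 at 12 h after dexamethasone and -0.49 at 12 h after saline against baseline. The remaining probe gave -0.41 at 12 h after dexamethasone and 0.45 at 24 h after saline. These are larger than the spot interval of 0.40 typical of the brightest probes.

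**Figure D2:**
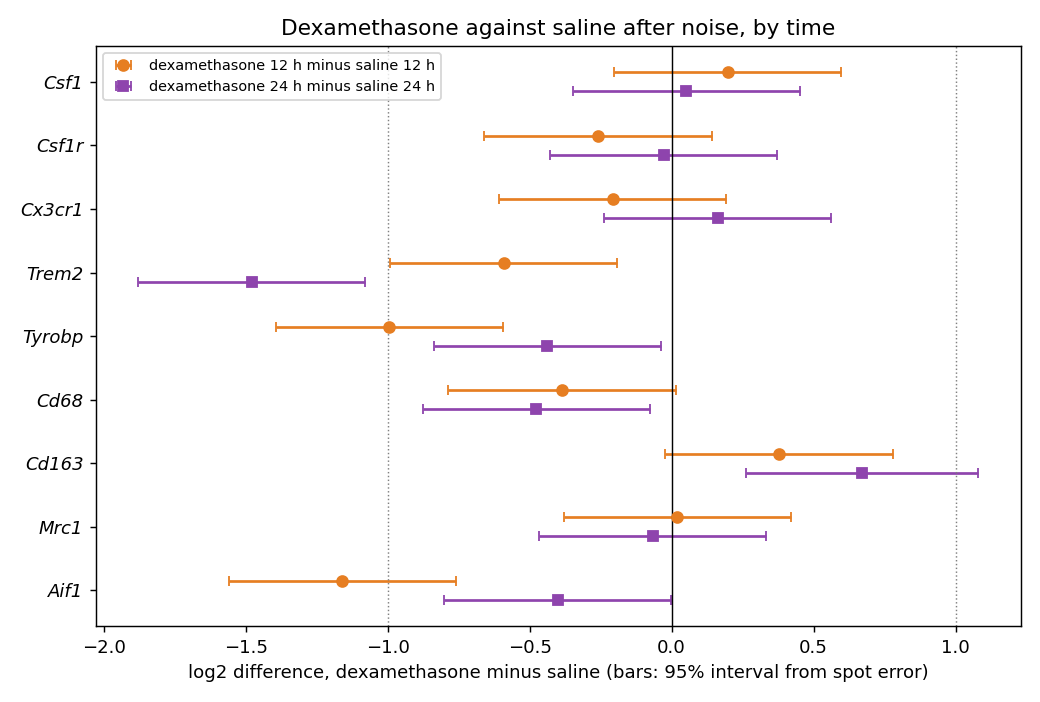
Log2 difference of dexamethasone minus saline for each gene at 12 h (circles) and 24 h (squares), with bars for the 95% interval from spot error; dotted lines mark 2-fold. The points of Trem2, Tyrobp, Aif1 and Cd68 lie below 0 at both times and those of Cd163 above 0 at both. The bars of Csf1, Csf1r, Cx3cr1 and Mrc1 span 0 at both times, and those of Cd163 and Cd68 span 0 at 12 h.

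Csf1r, the growth factor receptor that defines the lineage, and Cx3cr1, the fractalkine receptor carried by most cochlear macrophages, showed small differences between dexamethasone and saline. Csf1r had levels of 3.75 at 12 h and 4.33 at 24 h after dexamethasone, against 4.01 and 4.36 after saline, with 4.04 after noise only and 4.56 at baseline. Cx3cr1 had levels of 1.40 and 2.07 after dexamethasone, against 1.61 and 1.91 after saline, with 1.72 after noise only and 2.27 at baseline. For both genes the baseline array was the highest and the dexamethasone 12 h array the lowest. The dexamethasone minus saline differences were -0.26 at 12 h and -0.03 at 24 h for Csf1r, and -0.21 and 0.16 for Cx3cr1, all within spot error. With spike-in scaling the 12 h differences were 0.03 for Csf1r and 0.08 for Cx3cr1.

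Against baseline the brightest probe of each receptor was lower in the arrays of noise only and of both 12 h groups by more than spot error. Csf1r was 1.75-fold lower (1.33 to 2.31) at 12 h after dexamethasone, 1.46-fold lower (1.11 to 1.93) at 12 h after saline and 1.43-fold lower (1.09 to 1.89) after noise only. Cx3cr1 was 1.83-fold (1.39 to 2.41), 1.58-fold (1.20 to 2.09) and 1.46-fold (1.11 to 1.93) lower in the same 3 arrays. At 24 h the differences from baseline were within spot error for both genes and both treatments. The second, dimmer Csf1r probe, which reads an upstream part of the transcript, gave 0.00 on the dexamethasone 12 h array and -0.04 on the saline 12 h array, so the 12 h differences of Csf1r rested on the brighter probe. The dimmer Cx3cr1 probe gave -0.95 and -0.53 on those arrays, near the -0.87 and -0.66 of the brighter one. After noise only the dimmer probes gave -0.33 for Csf1r and -0.29 for Cx3cr1, smaller than the -0.52 and -0.55 of the brighter ones. Both lay inside the spot interval of 0.40 typical of the brightest probes. The same 3 arrays held high cerebellar neuron genes, with medians above baseline of 2.01 at 12 h after dexamethasone, 1.77 at 12 h after saline and 2.78 after noise only. Stria vascularis genes were below baseline in 7 of 7 on both 12 h arrays, with medians of -0.66 after dexamethasone and -0.56 after saline. The part of sampled tissue in the Csf1r and Cx3cr1 differences was not tested.

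Csf1, the ligand, had its own highest level of the 6 arrays after noise only. Its level was 1.71 at 12 h and 1.83 at 24 h after dexamethasone, against 1.52 and 1.78 after saline, with 1.94 after noise only and 1.48 at baseline. The noise-only array was 1.38-fold above baseline (1.05 to 1.82), and no other difference from baseline passed spot error. Csf1 was read by 1 probe for RefSeq variant 1, NM_007778, and by 2 overlapping probes for variant 3, NM_001113530. The variant 1 probe was higher with dexamethasone than with saline by 0.20 at 12 h and 0.05 at 24 h (-0.05 at 24 h with spike-in scaling), whereas the variant 3 probes gave -0.44 and -0.12 at 12 h and -0.37 and -0.27 at 24 h. The 2 variant 3 probes share sequence and are not independent readings.

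Mrc1, the mannose receptor of resident and perivascular macrophages, had the narrowest range, 0.42 on the log2 scale over 6 arrays. Its level was 1.18 at 12 h and 0.87 at 24 h after dexamethasone, against 1.16 and 0.93 after saline, with 0.82 after noise only and 1.24 at baseline. The dexamethasone minus saline differences were 0.02 and -0.07. Only the noise-only array differed from baseline beyond spot error, 1.33-fold lower (1.01 to 1.76).

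**Figure D3:**
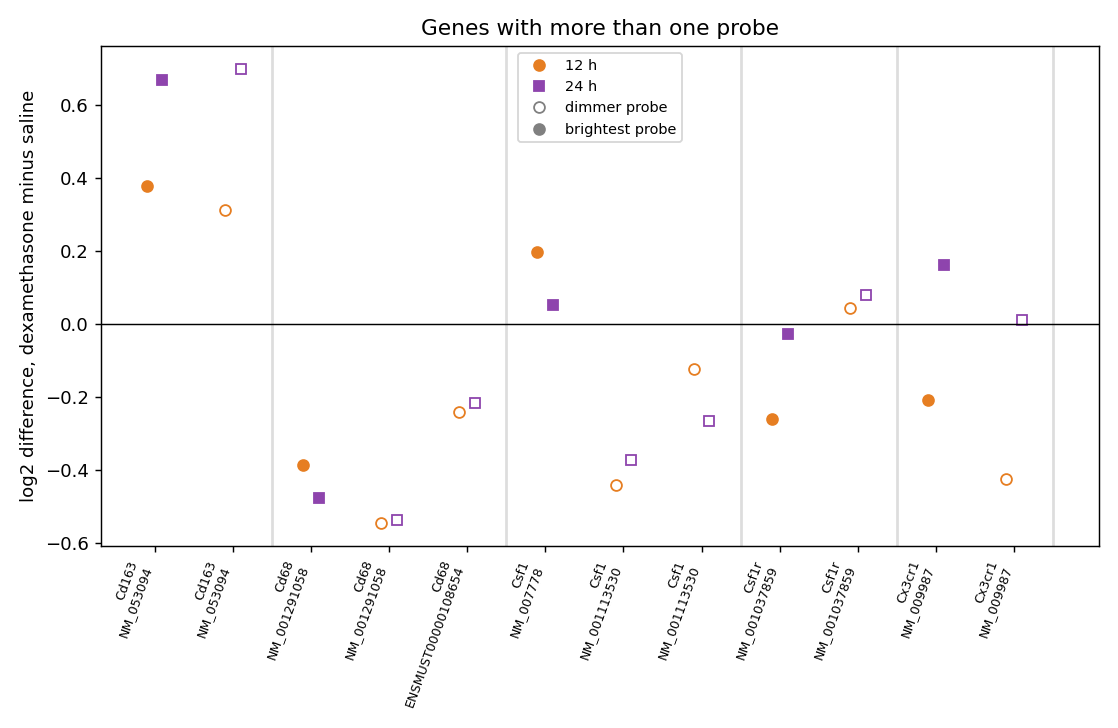
Log2 difference of dexamethasone minus saline at 12 h (circles) and 24 h (squares) for every probe of the 5 genes with more than 1 probe, with the brightest probe of each gene filled. The probes of Cd163 lie above 0 and those of Cd68 below 0 at both times, and the Csf1 probes for variant 1 and variant 3 lie on opposite sides of 0.

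Counted over all 9 genes, few members passed 2-fold in any comparison. One member, Aif1, was at least 2-fold lower with dexamethasone than with saline at 12 h, beside 1.88% of all measured genes (3.54% in either direction), and one, Trem2, was so at 24 h, beside 1.53% (3.16% in either direction). None was at least 2-fold higher, beside 1.67% and 1.63% of measured genes. The median difference of the members was -0.26 at 12 h, with 6 of 9 below 0, and -0.07 at 24 h, with 6 of 9 below 0, where the median of all measured genes was -0.02 and -0.0049. Scaling on spike-in probes moved the median of all genes by 0.29 at 12 h and -0.10 at 24 h, and the member median relative to that of all genes was then -0.23 and -0.06.

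The only contrast with 2 arrays on each side set both dexamethasone arrays against both saline arrays in limma, with time, which is also slide, as a term. No member passed an adjusted p of 0.05, and limma called 0 (0%) of 24766 genes in either direction, with 2247 lower and 1388 higher at an unadjusted p under 0.05. At that unadjusted level Trem2, Tyrobp, Cd68 and Aif1 were lower and Cd163 was higher, 4 and 1 of the 9 members, beside 9.07% and 5.6% of all genes tested. The members, and the lists below, were chosen with earlier results of these data known. Such shares are therefore descriptions and not tests of a set. The log2 differences were -1.03 for Trem2 (SE 0.23, limma adjusted p = 0.204), -0.72 for Tyrobp (SE 0.17, adjusted p = 0.207), -0.78 for Aif1 (SE 0.21, adjusted p = 0.238), -0.43 for Cd68 (SE 0.11, adjusted p = 0.236) and 0.52 for Cd163 (SE 0.15, adjusted p = 0.262), each in 2 of 2 array pairs. For the other 4 genes the 95% intervals of the limma difference were -0.46 to 0.17 (Csf1r), -0.19 to 0.44 (Csf1), -0.40 to 0.35 (Cx3cr1) and -0.34 to 0.29 (Mrc1). None of these reached 2-fold in either direction. They do not measure the spread between replicate arrays or between animals, so a 2-fold difference is not excluded.

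Against baseline the member median was -0.42 after noise only, 0.02 at 12 h and -0.20 at 24 h after saline, and -0.36 and -0.23 at those times after dexamethasone. All 5 comparisons share the baseline array, and the median of all measured genes in them lay between -0.01 and 0.06. One member, Cd163, was at least 2-fold lower after noise only, beside 3.18% of measured genes (2.64% were higher and 5.82% in either direction), and it was also so at 24 h after saline, beside 1.72%. Trem2 was the one member at least 2-fold higher, at 24 h after saline, where 3.44% of measured genes were apart in either direction. No member was 2-fold apart from baseline at 12 h after saline, at 12 h after dexamethasone or at 24 h after dexamethasone, beside 7.84%, 7.2% and 3.33% of measured genes in either direction. Of all measured genes, 4.41% were higher and 3.42% lower at 12 h after saline, 4.55% and 2.64% at 12 h after dexamethasone, and 1.31% and 2.02% at 24 h after dexamethasone. Spike-in scaling moved the median of all genes by -0.10, -0.82, -0.30, -0.53 and -0.40 in the same order of comparisons, and the member median relative to all genes was then -0.40, -0.04, -0.21, -0.36 and -0.25.

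**Figure D4:**
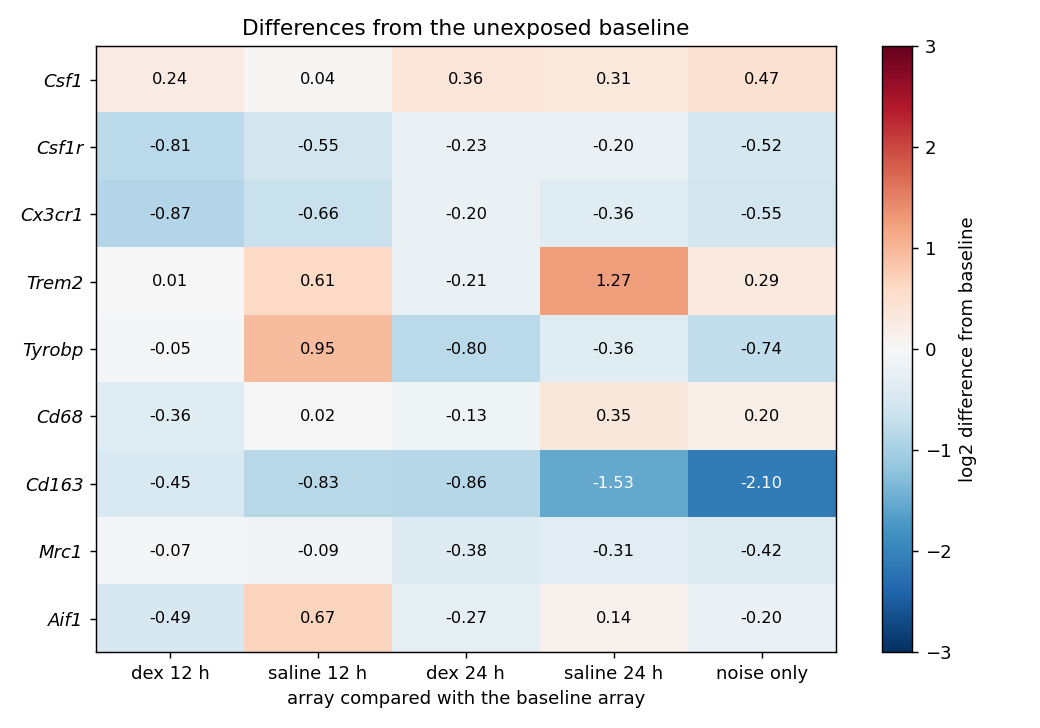
Log2 difference of each array from the baseline array for the 9 genes, written in the cells and coloured from blue (lower) to red (higher). Cd163 is below baseline in every column, to -2.10 after noise only, and Trem2 is highest at 24 h after saline (1.27).

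The members did not share one pattern over the 6 arrays. Likeness was measured as the root mean square difference between log2 profiles, each centred on its own mean over 6 arrays, among 11305 candidate genes, and it is a description with no test. Csf1r and Cx3cr1 were the most alike pair of members, 0.065 apart, and Csf1r was the candidate nearest to Cx3cr1. The next nearest to Cx3cr1, and the nearest to Csf1r at 0.041, was Cd93, a receptor of endothelial and myeloid cells. Cd163 and Trem2 were the least alike pair of members, 1.02 apart.

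Tyrobp was nearest to Cd52, a surface glycoprotein of leukocytes, at 0.071, followed by the histone genes H4c4 and H4c14, whose near-identical copies the probes may not separate. Aif1 was nearest to Psmb9, an immunoproteasome subunit, at 0.075, and to the MHC class I gene H2-Q7 at 0.107. Trem2 had no close match: the nearest were Gstt2 at 0.219, Otor, which encodes otoraplin, a secreted protein of the cochlea, at 0.235, and Fscn2, an actin crosslinker of hair bundles, at 0.257. Cd163 was nearest to Arid3a at 0.217. The profiles of Csf1, Cd68 and Mrc1, with ranges of 0.47, 0.71 and 0.42, each lay within 0.06 of 3 candidates, as did that of Csf1r with a range of 0.81.

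Most genes of a list drawn up around TYROBP signalling had lower levels with dexamethasone, though none passed the adjusted limma threshold. The 10 genes were Trem1, Trem3, Treml2, Clec5a, Siglech, Fcer1g, Hcst, Syk, Plcg2 and Inpp5d. They include other adaptors (Fcer1g and Hcst) and enzymes that are not kinases (Plcg2 and Inpp5d), so not all are partners of TYROBP itself. Of the 10, 8 were lower than saline at 12 h and 9 at 24 h, with medians of -0.50 and -0.37, where 52.9% and 50.8% of all measured genes were lower. At an unadjusted limma p under 0.05, 8 of 10 were lower, beside 9.07% of all genes tested. Like the other lists, this one was chosen with earlier results of these data known, so the share is a description and not a test. With spike-in scaling the medians were -0.21 and -0.47. Hcst, the sister adaptor DAP10, differed by -1.04 (-1.44 to -0.64) at 12 h and -0.75 (-1.15 to -0.35) at 24 h. Trem3, a receptor of the same family, differed by -0.86 and -0.52, and Fcer1g, the Fc receptor gamma chain, by -0.71 at 12 h. Clec5a, a lectin receptor that couples to TYROBP, differed by -0.63 at 24 h.

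The CSF1 axis list of 8 genes, with the ligand Il34 and lineage transcription factors, had medians close to 0, though single genes differed in both directions. The medians were -0.07 at 12 h (0.22 with spike-in scaling) and -0.06 at 24 h, with 4 of 8 and 5 of 7 measured genes lower. At an unadjusted limma p under 0.05, 2 of 8 were lower. Irf8, a transcription factor of monocyte development, differed by -1.22 (-1.62 to -0.82) at 12 h and -0.53 (-0.93 to -0.13) at 24 h. Nrros differed by -0.74 (-1.14 to -0.34) at 12 h and, within spot error, by -0.23 at 24 h. Cebpa, a transcription factor of myeloid precursors, was higher by 0.64 (0.24 to 1.05) at 24 h. Spi1, the gene of PU.1, was not well above background on either 24 h array and differed by -0.25 at 12 h, within spot error. Il34 differed by -0.51 (-0.91 to -0.11) at 24 h.

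Among 18 broad macrophage genes 15 were below saline at 12 h and 15 at 24 h, with medians of -0.45 and -0.39, and 10 of 18 were lower at an unadjusted limma p under 0.05, beside 9.07% of all genes tested, with 0 passing the adjusted threshold. With spike-in scaling the medians were -0.16 and -0.50. Fcgr1, the high-affinity IgG receptor, and Mpeg1, a pore-forming protein of macrophages, both differed by -0.80 at 12 h. At 24 h Laptm5, a lysosomal membrane protein of leukocytes, differed by -0.91 (-1.31 to -0.51) and Ctss, cathepsin S, by -0.69 (-1.09 to -0.29). At each time 3 of the 18 were above saline. Among them at 12 h was Lyz2, the lysozyme gene, at 8.78 after dexamethasone and 8.58 after saline. The summed linear level of the list was also higher with dexamethasone at 12 h, 498 against 463 after saline. At 24 h it was lower, 161 against 207. Perivascular-type genes, 13 in number, had medians of -0.01 and -0.11 (0.28 and -0.21 with spike-in scaling), and 2 were lower and 1 higher at an unadjusted limma p under 0.05. Within them Pf4, which platelets also express, was 1.99-fold lower at 12 h and differed by -0.73 on the log2 scale at 24 h, and Lyve1, a hyaluronan receptor, and Cbr2, a carbonyl reductase, were higher at 12 h (0.61 and 0.73). At 24 h Cbr2 differed by -0.57, while Ccl24, a chemokine, was higher by 0.66 (0.24 to 1.08) and Cd209f, a C-type lectin, by 0.55 (0.15 to 0.96).

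Genes of lipid- and debris-handling macrophages, the state in which TREM2 acts in brain microglia, had medians of -0.08 and -0.23 (0.21 and -0.33 with spike-in scaling), and 3 of 13 were at least 2-fold lower at 12 h and 2 at 24 h, beside 1.88% and 1.53% of all measured genes. At each time 4 of 13 were above saline, among them Ctsl, cathepsin L, by 0.66 (0.26 to 1.06) at 12 h. Itgax, the integrin CD11c, differed by -1.45 at 12 h and -0.80 at 24 h, Clec7a, the beta-glucan receptor Dectin-1, by -1.35 and -0.92, and Cst7, a cysteine protease inhibitor, by -1.07 and -1.06. Gpnmb, a glycoprotein of phagocytes and pigment cells, differed by -1.14 (-1.54 to -0.74) at 24 h. None of the 13 passed the adjusted limma threshold, and 4 were lower at an unadjusted p under 0.05.

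**Figure D5:**
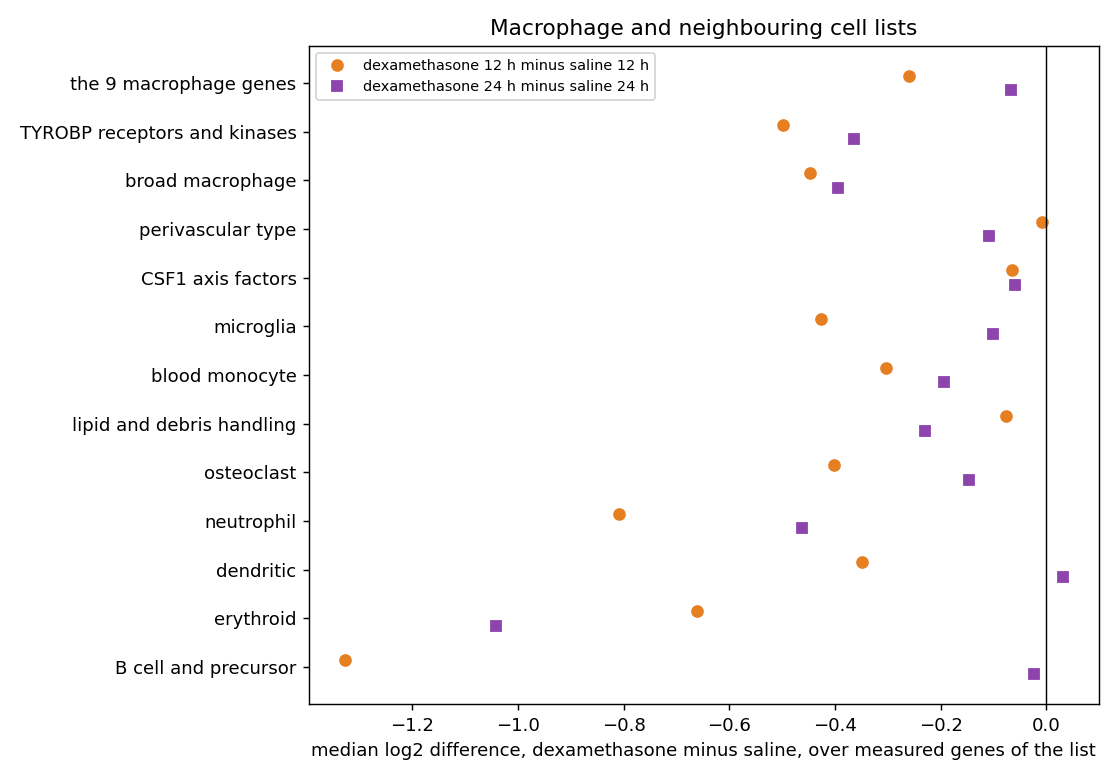
Median log2 difference of dexamethasone minus saline over the measured genes of each list at 12 h (circles) and 24 h (squares). The TYROBP and broad macrophage lists lie at -0.50 to -0.37, the perivascular-type list near 0, and the neutrophil, erythroid and B cell lists reach lower values.

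Several marker lists of other blood and marrow cells also had medians below 0, with 0 genes of any list passing the adjusted limma threshold. Neutrophil genes had medians of -0.81 at 12 h and -0.46 at 24 h for dexamethasone minus saline, with 11 of 12 lower at each time. Of all measured genes, 52.9% and 50.8% were lower at these times. Erythroid genes had medians of -0.66 and -1.04 with 9 of 9 lower, B cell and precursor genes -1.33 and -0.02 (Rag1 was not well above background on any array), blood monocyte genes -0.30 and -0.19 with 6 and 8 of 10 lower, and osteoclast genes, a bone lineage that also needs CSF1R, -0.40 and -0.15. At an unadjusted limma p under 0.05, 10 of 12 neutrophil, 7 of 9 erythroid and 4 of 10 monocyte genes were lower, beside 9.07% of all genes tested. The counts were 2 of 9 for B cell and 2 of 10 for osteoclast genes. In these lists only 1 gene, of the monocyte list, was higher at that level. With spike-in scaling all 5 of these lists kept medians below 0 at both times, the nearest to 0 being -0.02 for monocyte genes at 12 h. Dendritic cell genes had -0.35 and 0.03, with 2 and 4 of 7 above saline. The summed neutrophil level, in multiples of the 75th percentile signal, was 1062 at 12 h and 528 at 24 h after dexamethasone, against 1380 and 685 after saline, with 500 after noise only and 943 at baseline. At 12 h after dexamethasone the sum was above baseline, yet 9 of 12 genes were below it, with a median of -0.33. Ltf, the lactoferrin gene, was higher there by 2.14 (1.74 to 2.54) than at baseline. Against saline at 12 h it was higher by 1.16, the 1 neutrophil gene above saline at that time. The saline 12 h array was the highest for the neutrophil sum as it was for Tyrobp and Aif1, and all 12 neutrophil genes were well above background on every array. Their part in the differences of Tyrobp, Aif1 and the TYROBP list was not tested.

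After noise only, where Cd163, Tyrobp, Csf1r, Cx3cr1 and Mrc1 were below baseline, neutrophil genes had a median of -1.14 with 12 of 12 lower, monocyte genes -0.62, osteoclast genes -0.55, erythroid genes -0.72 and B cell genes -1.32. Cerebellar neuron genes were higher than baseline in 10 of 10 in that array and in both 12 h arrays, and their summed level was 92.8 at 12 h and 18.0 at 24 h after dexamethasone, 86.5 and 27.9 after saline, 115 after noise only and 20.9 at baseline. Microglia genes had a median of -0.20 after noise only, -0.54 at 12 h after dexamethasone and -0.15 at 12 h after saline. The part of neighbouring tissue in the values of the noise-only array was not tested. Hair cell genes summed to 12.8 at 12 h and 14.6 at 24 h after dexamethasone, against 14.3 and 20.2 after saline, with 17.9 after noise only and 13.4 at baseline, so the array with the highest Trem2 level was also the one with the highest hair cell sum, and the part of sampled tissue in the Trem2 difference was not tested.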

How the data were processed

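Per the labels, total RNA of the cochlea was labelled with Cy3 and hybridised to 1 array per group. The scanner files deposited by the authors hold linear intensity values, background-subtracted and detrended (per the file headers) by Agilent's Feature Extraction, version 10.10.1.1. The deposited series matrix holds log2 values, with column medians of -2.81 and -2.899 (dexamethasone 12 h and 24 h), -2.85 and -2.928 (saline 12 h and 24 h), -2.979 (noise only) and -2.952 (baseline); set against the scanner values, each column was the log2 signal minus a constant in 100% of probes, within 0.01, so its scale, centring and direction are known.

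Outlier spots were left out, spots of a probe were averaged, and each array's 75th percentile was subtracted from the log2 values. A gene was represented by its brightest probe, and 32989 probes were named through RefSeq accessions (GRCm38.p6). A gene was measured in a comparison when well above background on both arrays. The test was limma 3.58.1 (lmFit, eBayes with trend) in R 4.3.3 with Benjamini-Hochberg adjustment over the genes that at least 2 of its 4 arrays held well above background. Whether those arrays hold separate animals is known only by group. No 2 of the 4 arrays share both treatment and time. The p-values and SEs therefore rest on how far the dexamethasone difference varied between 12 h and 24 h, moderated with a spread pooled over genes. They do not measure the spread between replicate arrays or between animals. Tested on simulated data, this fit of 24766 genes found 9% of 100 genes with a true 2-fold change. It found 70% of 100 with a true 4-fold change and made 6 false calls. The spot error came from the software. Named genes were the 9 members, up to 4 genes per list and comparison by size, and the 3 most alike genes per member. The members and lists were chosen with earlier results of these data known. Python 3.11.15, pandas 2.3.3 and numpy 2.4.6 were also used. Alternatives tried were spike-in scaling, quantile normalization, a normexp correction (offset 50), the series matrix, a 75th percentile of the everywhere-detected probes, stricter and absent dim-probe filters, a mean over probes, a 1.5-fold threshold, other settings of the fit and each array left out.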

Additional observations from a re-analysis of the deposited data

How the results depend on the processing

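With 1 array per group, the number of arrays limits the precision. Of 63 member differences, 63 moved by less than their spot error under quantile normalization, the percentile over detected probes and the series matrix, 62 under normexp correction and 62 with the mean over probes. The exception under normexp correction was Cd163 after noise only against baseline, at -1.62 in place of -2.10. Spike-in scaling turned the sign of 11, of which 2 had been beyond spot error, Trem2 (-0.21) and Aif1 (-0.15) at 12 h after saline against baseline, and 24 besides these 2 moved by more than spot error. That scaling gave member medians of -0.80 (saline 12 h), -0.89 (dexamethasone 12 h) and -0.63 (dexamethasone 24 h) against baseline, and 3, 3 and 2 members at least 2-fold apart there, 1 for saline 24 h against baseline and 0 for dexamethasone 12 h against saline 12 h. The cause was not tested. At 1.5-fold, 2 members were apart for noise only, 5 for saline 12 h, 2 for dexamethasone 12 h and 2 for dexamethasone 24 h against baseline, and 3 and 2 for dexamethasone against saline at 12 h and 24 h. Among genes at or above the median signal, which leaves out Cd163, 0 members were apart for noise only and 1 for saline 24 h against baseline. The limma count over all genes was 548 with spike-in scaling, 951 without a filter on dim probes, where adjusted p-values were 0.0124 for Trem2, 0.028 for Tyrobp and 0.0301 for Aif1, and between 0 and 21 with 1 array left out, 21 without the dexamethasone 12 h array. With 1 array left out the time term was dropped too, the spread came from the 2 arrays of the other treatment, which differ in time and slide, and the lone array was assumed to vary like them; the cause was not tested. Over these alternatives the adjusted p lay between 0.0124 and 1.00 for Trem2. The labels give no replicate numbers to pair; the fit pairs arrays by time, and without the time term limma called 0 genes, with 797 at an unadjusted p under 0.05.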
